A study of Drosophila melanogaster with 4 samples.

Results

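The cytochrome P450 family of Drosophila melanogaster was examined in Kc167 cells, across 4 Affymetrix arrays. Its members were taken as the genes whose current symbol reads Cyp followed by a number and a letter. This gave 81 genes of the 10844 with a probe set of their own, measured by 85 probe sets. Where a gene had more than 1 probe set, the one with the highest mean log2 signal stood for it, which applied to 4 genes. The RefSeq annotation lists 85 genes under such symbols, and Cyp12d1-p, Cyp6a15Psi, Cyp6t2Psi and Cyp9f3 were not analysed here for want of a probe set matched to them alone.

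Kc167 is an established line of embryo-derived female cells, grown in serum-free medium. All cultures were incubated for 72 h and rested for a further 90 min before total RNA was taken. The control culture received no hormone and was mock-treated. The ecdysone culture received 10 µM muristerone A, an ecdysone analog that activates the ecdysone receptor, and was mock-treated. The irradiated culture received 280 Gy of gamma rays without hormone, and the combined culture received both the hormone and the gamma rays. Each condition was 1 culture on 1 array of this line, so no value had a replicate. The number of arrays limits the precision.

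Cytochrome P450 enzymes are membrane-bound heme proteins that insert an oxygen atom into small lipophilic molecules, with electrons supplied by partner proteins. In insects they serve both in the breakdown of foreign compounds, insecticides among them, and in the making and removal of hormones and of cuticle lipids. The family is divided into clans. The CYP3 clan holds many genes that respond to foreign compounds, the CYP4 clan is linked with fatty acid oxidation, the CYP2 clan and the mitochondrial clan include steps of ecdysteroid metabolism. Cyp18a1, of the CYP2 clan, hydroxylates and so inactivates the hormone. Several enzymes of hormone synthesis are P450s under other names, such as sad and shd, and are described with the partner genes below.

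Signals are given in the units of the MAS5 algorithm, after each array was scaled to a common trimmed mean. A floor was set at 119.4 units, the median of all signals. Signals below the floor have no order, and signals of different probe sets are not comparable with each other. Log2 differences were therefore taken within a gene, with values under the floor raised to it. A difference whose lower level was at the floor is a bound, written as "at least" or shown by a signal under 119.4 units beside it. Median signals over all probe sets lay between 113.7 in the combined and 125.0 in the ecdysone array.

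In untreated Kc cells 27 of the 81 P450 genes, or 33.3%, lay above the floor, against 52.7% of all genes. These were Cyp6a8, Cyp4e2, Cyp6d4, Cyp12d1-d, Cyp6a16, Cyp9f2, Cyp6t3, Cyp6a18, Cyp12b2, Cyp6a20, Cyp9h1, Cyp305a1, Cyp4p2, Cyp6d2, Cyp6a2, Cyp4ad1, Cyp301a1, Cyp9c1, Cyp4d2, Cyp12c1, Cyp4d20, Cyp28a5, Cyp4ac2, Cyp6a13, Cyp6a14, Cyp313a4 and Cyp310a1. They included 15 of 37 CYP3 genes, 7 of 32 CYP4 genes, 4 of 8 mitochondrial genes and 1 of 4 CYP2 genes. By chromosome arm they were 15 of 33 genes on 2R, 4 of 13 on 2L, 3 of 6 on 3L, 4 of 15 on 3R and 1 of 14 on X. Cyp49a1 was not counted, at 44.2 units in control at its representative probe set, but its second probe set lay above the floor there at 165.9. Just inside the threshold lay Cyp305a1 at 122.0 units, Cyp310a1 at 129.2 and Cyp4d2 at 133.5. Just outside it lay Cyp317a1 at 108.9, Cyp6g2 at 102.4 and Cyp6a23 at 100.6.

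The number of members above the floor was 38 of 81 in the ecdysone array (46.9%), 41 in the irradiated array (50.6%) and 28 in the combined array (34.6%). Over all genes the share above the floor stayed between 51.1% and 53.2%. The family's count was thus higher with either treatment alone than in the control or with both treatments. With 1 array per condition this difference could not be tested. The control probe sets at both ends of the ACTIN transcript, a sign of RNA quality, had a log2 3′ minus 5′ signal of -0.29 in control, 0.27 with ecdysone, 0.93 after irradiation and -0.47 with both. For eIF-4a these values were 0.01, 0.19, 0.58 and -0.34, and for GAPDH they were 0.52, 0.82, 1.49 and 1.81. The ACTIN and eIF-4a values were also higher on the arrays of a single treatment, while that of GAPDH was highest with both. The part of these values in the family's count was not tested.

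**Figure D1:**
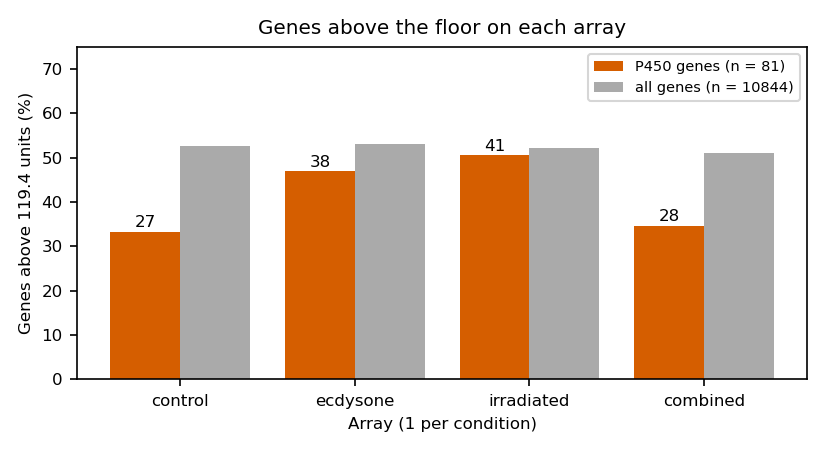
Share of genes with a signal above 119.4 units (vertical axis, percent) on each of the 4 arrays, for the 81 P450 genes and for all 10844 genes. The number over each P450 bar is its count of genes, 27 in control, 38 with ecdysone, 41 after irradiation and 28 with both, while the bars of all genes lie between 51.1% and 53.2%.

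On all 4 arrays 12 members lay above the floor, which is 14.8% of the family against 23.6% of all genes. Of these 12, 8 belong to the CYP3 clan, 2 to the mitochondrial clan, 1 to CYP4 and 1 to CYP2. The lowest signals among them lay close to the floor, at 119.8 units for Cyp6a20 in combined and 122.0 for Cyp305a1 in control. At the other end 18 members stayed at or below the floor on every array, with signals from 8.8 to 101.5 units. They make 22.2% of the family, against 17.0% of all genes. These were Cyp6v1, Cyp4ae1, Cyp9b2, Cyp313a1, Cyp4p3, Cyp4e1, Cyp303a1, Cyp4e3, Cyp313a2, Cyp309a2, Cyp6a19, Cyp4c3, Cyp6a17, Cyp4d21, Cyp313b1, Cyp12a5, Cyp4d1 and Cyp4ac1. The remaining 51 members crossed the floor between arrays. Of these 26 exceeded it on 1 array, 32.1% of the family against 21.5% of all genes. On 2 arrays it was 15 (18.5% against 20.5%) and on 3 arrays 10 (12.3% against 17.4%).

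Of the 12 members above the floor everywhere, the narrowest range belonged to Cyp9h1, with 201.5 units in control, 180.3 with ecdysone, 190.1 after irradiation and 185.9 with both. Its highest signal was 1.12 times its lowest. Cyp6a16 had 446.2, 570.1, 444.2 and 469.9 units in the same order, a range of 1.28-fold. Both genes lay level across hormone and irradiation, though no replicate gives the spread of a culture. Cyp305a1 ranged over 1.53-fold (122.0, 173.5, 130.8 and 186.7), Cyp12b2 over 1.82-fold (314.7, 181.5, 262.4 and 172.8) and Cyp6a18 over 1.97-fold (143.0, 236.2, 282.0 and 272.6). In Cyp305a1 both hormone arrays lay above both arrays without hormone, and in Cyp12b2 they lay below.

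**Figure D2:**
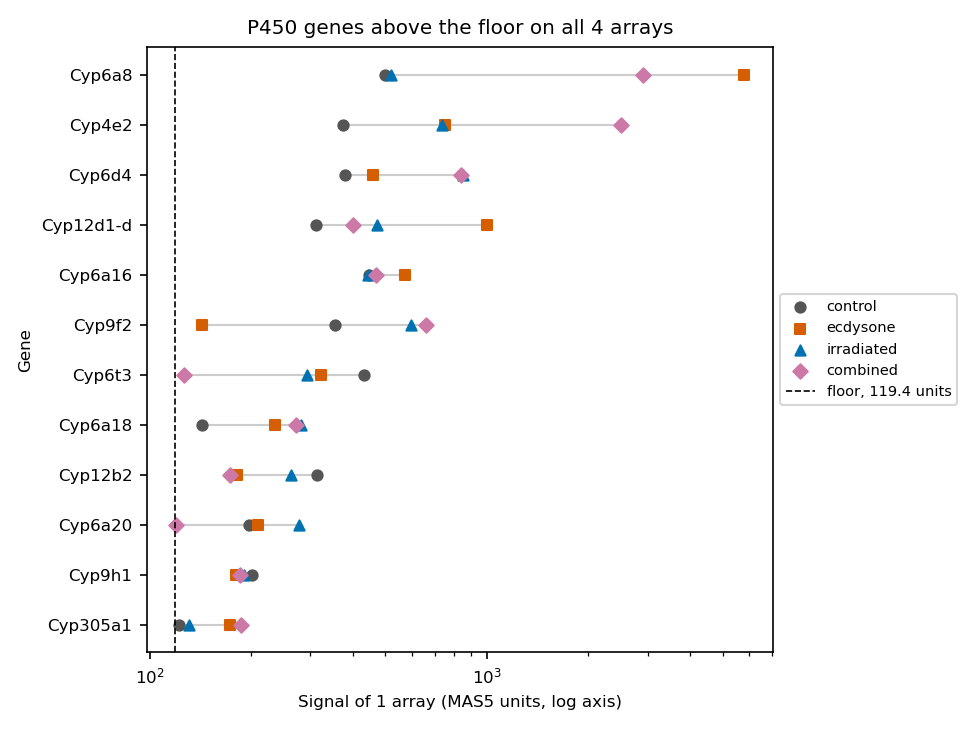
Signals (horizontal log axis, MAS5 units) of the 12 P450 genes above the floor on all 4 arrays, each point being 1 array and the dashed line the floor of 119.4 units. Cyp6a8 stands apart on both hormone arrays at 5791.8 and 2909.7 units against 499.8 and 518.1 without hormone, while the 4 points of Cyp9h1 lie within 1.12-fold; signals are to be compared within a row.

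Cyp6a8 rose with ecdysone. Its product is an enzyme of the CYP3 clan, known for its induction by foreign compounds and for high levels in insecticide-resistant strains. Its signal was 499.8 units in control, 5791.8 with ecdysone, 518.1 after irradiation and 2909.7 with both. Both hormone arrays lay far above both arrays without hormone, which differed from each other by 1.04-fold. The increase was 11.6-fold without irradiation and 5.62-fold with it. The log2 differences of 3.53 and 2.49 differ by -1.05, a gap with no residual left to test it.

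The hormone effect was tested with an additive limma fit of both treatments. It covered all 5981 probe sets with a mean log2 signal above the floor, and p-values were adjusted over all of them by the Benjamini-Hochberg method. The genes tested included 26 of the 81 P450 members, so a member's place in the test depended on its level. Cyp6a8 rose with a log2 difference of 3.01 and a standard error of 0.33 (limma adjusted p = 1.07e-07). No other of the 26 passed, so that the called share was 3.85%, where 1.44% of the tested probe sets rose and 0.552% fell. No member was called lower by limma. At an unadjusted p under 0.05 there were 3 members higher and 1 lower, together 15.4% of the 26 against 9.76% of all probe sets. The fit has 1 residual degree of freedom and takes most of its spread from probe sets of similar signal. When it used 1 prior variance for all signal levels, the adjusted p of Cyp6a8 was 0.668, and over the 9 alternatives it ranged from 4.03e-15 to 0.668.

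**Figure D3:**
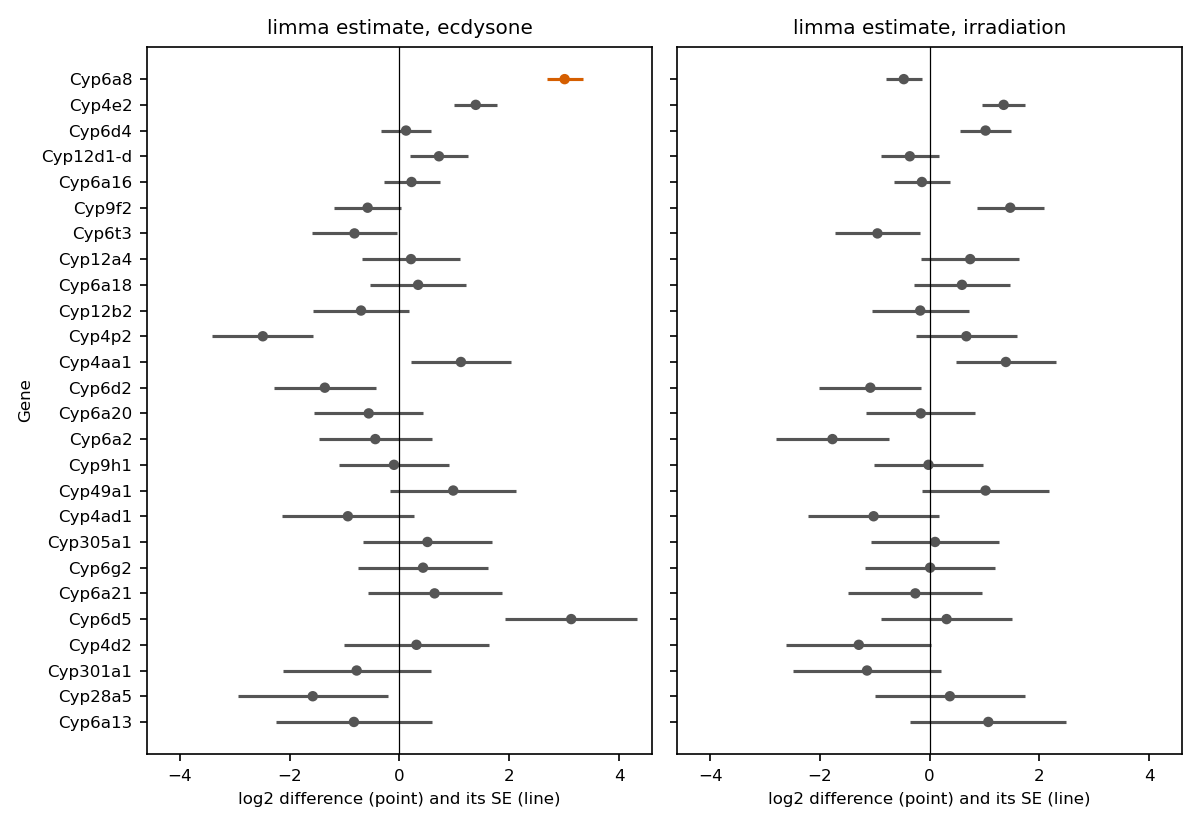
Additive limma estimates for the 26 tested P450 genes, as log2 differences (horizontal axis) with lines of 1 standard error, for ecdysone on the left and irradiation on the right. The orange point marks the estimate past an adjusted p of 0.05, Cyp6a8 with ecdysone at 3.01, and no estimate passed for irradiation.

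A size rule with no test called a gene when its difference reached 2-fold in each of the ecdysone pairs with 1 direction. It called 3 members higher and 1 lower of the 81, where 2.22% of all genes were called higher and 1.82% lower. Besides Cyp6a8 the higher members were Cyp4e2 and Cyp6d5, and the lower member was Cyp4p2. These shares of 3.7% and 1.23% lie near the background of all genes. Cyp4e2 was no longer called with median scaling, and Cyp6d5 was not with the floor at the 60th percentile (173.0 units).

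Cyp4e2, a CYP4 gene, had 373.6 units in control, 752.1 with ecdysone, 734.6 after irradiation and 2500.0 with both. Each treatment alone gave a like level and their combination the highest. The log2 differences with ecdysone were 1.01 and 1.77, the first close to the limit of the size rule. The limma estimate was 1.39 with a standard error of 0.39 (adjusted p = 0.0572), and it passed the threshold in 1 of 9 alternatives, median scaling, at an adjusted p of 0.0381.

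Cyp6d5, a CYP3 gene, had 52.1 units in control and 47.0 in irradiated, both under the floor. It had 333.2 in ecdysone and 563.8 in combined. Its signal was thus at least 2.79-fold higher with hormone in the unirradiated pair and at least 4.72-fold in the irradiated pair. The limma estimate on unfloored signals was 3.13 with a standard error of 1.20 (adjusted p = 0.291). Cyp28d1, also of the CYP3 clan, too exceeded the floor on the hormone arrays alone. It had 29.7, 235.4, 44.6 and 233.9 units in control, ecdysone, irradiated and combined. It was at least 1.97-fold and at least 1.96-fold higher with hormone, just under the 2-fold limit. Its mean log2 signal was too low for the fit.

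Cyp4s3 and Cyp313a5, of the CYP4 clan, were likewise above the floor on the hormone arrays alone. Cyp4s3 had 167.0 units in ecdysone and 227.7 in combined, and Cyp313a5 had 160.6 and 158.8. These 4 genes, with Cyp6d5 and Cyp28d1, make 4.94% of the family, against 3.65% of all genes above the floor on both hormone arrays and no other. The opposite pattern, above the floor only without hormone, held for Cyp28a5 and Cyp4ac2, 2.47% of the family against 3.64% of all genes.

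Cyp4p2, a CYP4 gene, had 677.1 units in control and 46.3 in ecdysone, and 413.9 in irradiated and 191.4 in combined. Both hormone arrays lay below both arrays without hormone. Its log2 differences were -2.50, a bound set by the floor, and -1.11. The limma estimate was -2.49 with a standard error of 0.92 (adjusted p = 0.267).

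Cyp6d2, a CYP3 gene, also had its hormone arrays lower within each pair, at 402.2 units in control against 234.0 in ecdysone and at 283.7 in irradiated against 73.8 in combined. Its log2 differences were -0.78 and -1.25 (limma adjusted p = 0.706). Cyp6t3, which is required for ecdysteroid synthesis in the prothoracic gland, had 431.9 units in control, 322.3 with ecdysone, 293.5 after irradiation and 126.7 with both. Its ecdysone differences were -0.42 and -1.21 (limma adjusted p = 0.822).

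**Figure D4:**
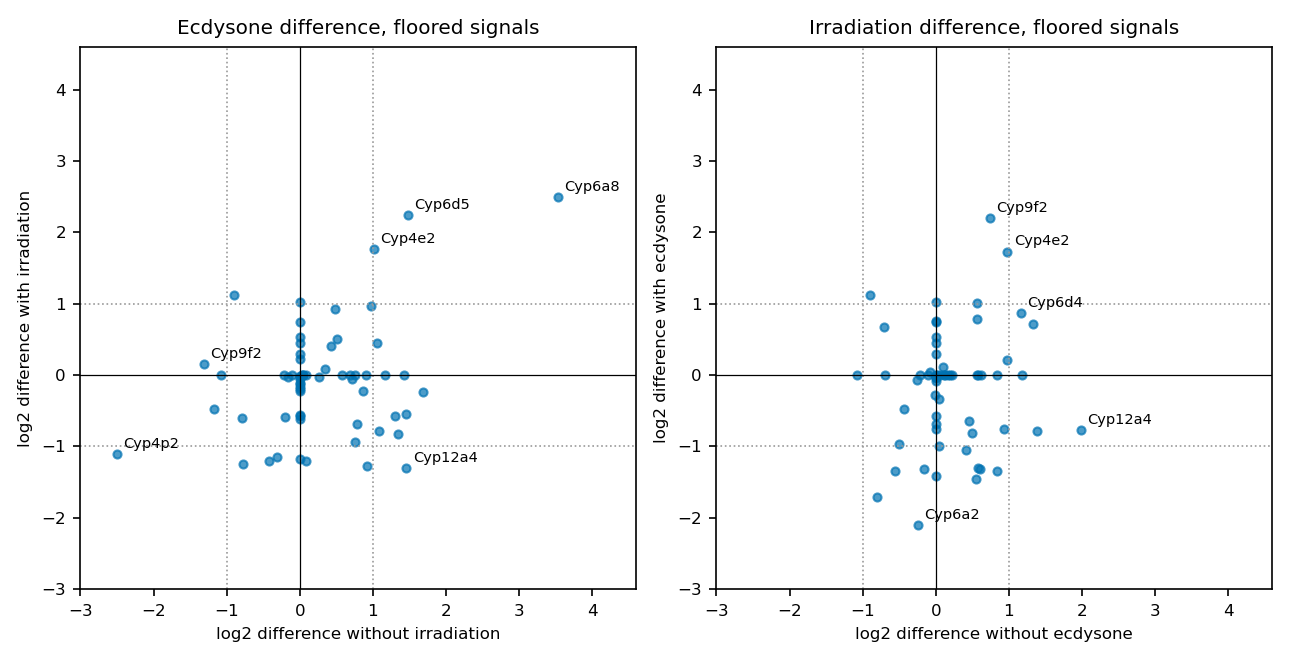
Log2 differences of floored signals for the 63 P450 genes above the floor on at least 1 array. The left panel sets the ecdysone difference without irradiation (horizontal) against that with it (vertical), the right panel the irradiation difference without and with ecdysone, and dotted lines mark 2-fold. Cyp6a8, Cyp4e2 and Cyp6d5 lie beyond 2-fold in the upper right of the left panel and Cyp4p2 in its lower left, while no gene lies beyond 2-fold in the upper right or lower left of the right panel.

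Taken pair by pair, without irradiation 12 of 81 members were at least 2-fold higher with ecdysone and 4 were at least 2-fold lower (14.8% and 4.94%), where 10.9% of all genes were higher and 11% lower. With irradiation 5 members were higher and 8 lower (6.17% and 9.88%), against 9.3% and 9.95% of all genes. Among the 63 members above the floor on at least 1 array, 32 were higher and 13 lower with ecdysone in the unirradiated pair (50.8% and 20.6%), against 41.4% and 42.5% of the 9004 such genes overall. In the irradiated pair 17 were higher and 33 lower (27.0% and 52.4%), against 40.3% and 41.6%. Of the 63 members 26 exceeded the floor on 1 array only, where the floor fixes the sign of a difference, so these shares in part restate the counts above the floor on each array. Their median difference was 0.03 in the first pair and -0.02 in the second, beside 0.00 over all genes in each, and 0.05 for the mean of both pairs beside -0.02.

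The members that were at least 2-fold higher in the unirradiated pair and not in the irradiated pair come from several clans. Cyp12d1-d, a mitochondrial P450 known for induction by foreign compounds, had 311.99 units in control and 998.1 with ecdysone, but 473.6 after irradiation and 400.9 with both. Its single high array was the ecdysone array, with differences of 1.68 and -0.24 (limma adjusted p = 0.74). A further probe set, shared with its tandem copy Cyp12d1-p, had 52.9 units in control, 408.7 with ecdysone, 299.5 after irradiation and 337.8 with both, with differences of 1.78 and 0.17. The copies are very alike, and signals of these probe sets cannot be assigned to either with certainty.

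Cyp6a2, known for metabolism of insecticides, had 242.5 units in control, 512.8 with ecdysone, 205.1 after irradiation and 52.4 with both. Its differences with ecdysone were 1.08 and -0.78 (limma adjusted p = 0.938). Cyp12a4, a mitochondrial P450 linked to insecticide resistance, had 99.7 units in control, 328.7 with ecdysone, 474.6 after irradiation and 192.8 with both. It was at least 2-fold away in opposite directions, with 1.46 without irradiation and -1.30 with it (limma adjusted p = 0.966). Cyp6a21, Cyp6a22, Cyp4aa1, Cyp6u1, Cyp4d2 and Cyp49a1 completed this set. Their unirradiated differences ran from at least 1.05 (Cyp4aa1) to at least 1.45 (Cyp6a21), and all but that of Cyp4d2 are bounds. In the irradiated pair Cyp6u1 and Cyp4d2 were under the floor on both arrays, so no difference could be measured. The others ran from -0.83 (Cyp49a1) to 0.45 (Cyp4aa1), where those of Cyp6a21 and Cyp6a22 are bounds.

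Probe sets of the same gene did not always give the same picture. Cyp9f2, a CYP3 gene, had 355.8 units in control, 143.6 with ecdysone, 594.7 after irradiation and 660.5 with both at its representative probe set, with ecdysone differences of -1.31 and 0.15. Its second probe set had 134.2, 337.6, 280.2 and 660.4 units, with differences of 1.33 and 1.24. The hormone response of Cyp9f2 therefore has no settled direction here. The second probe set of Cyp49a1 had 165.9 units in control, 203.5 with ecdysone, 99.9 after irradiation and 110.8 with both, so that it exceeded the floor on the unirradiated arrays, whereas the representative one exceeded it on all but the control array. The 2 probe sets gave 1.35 and 0.29 in the unirradiated pair and -0.83 and 0.00 in the irradiated pair. Both probe sets of Cyp9b2 stayed under the floor on every array, and the second probe set of Cyp318a1 did too.

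Of the 4 members of the CYP2 clan, Cyp305a1 alone lay above the floor on every array. Cyp18a1 had 15.4 units in control, 46.8 with ecdysone, 22.2 after irradiation and 172.1 with both, and only the combined array lay above the floor. The difference in the irradiated pair was at least 1.44-fold, and none could be measured in the other. Cyp305a1 had differences of 0.51 in each pair (limma adjusted p = 0.937). Cyp304a1 exceeded the floor on the irradiated array alone at 120.8 units, and Cyp303a1, which acts in bristle development, did so on none.

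Of the 9 listed genes of steroid hormone synthesis 6 were measured and 3 tested, and none passed for either treatment. The mitochondrial P450 gene sad had 563.8, 412.5, 499.5 and 655.0 units in control, ecdysone, irradiated and combined. The gene shd, whose product converts ecdysone to the active hormone, had 156.6, 164.4, 296.0 and 35.0 units. The short-chain dehydrogenase gene sro had 285.2, 176.1, 374.7 and 16.5. In shd and sro the combined array was the low one, with differences of -1.31 and -1.65 from the irradiated array. The cholesterol transporter gene Npc1a had 81.3, 64.9, 243.9 and 152.7 units. The gene dib stayed under the floor everywhere and spo exceeded it on the ecdysone array alone, at 124.6 units.

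The partners that feed electrons to P450s were measured for 4 of 6 listed genes, and none of the 4 tested passed for either treatment. Cyt-b5, the microsomal cytochrome b5, had 905.0, 986.7, 1149.5 and 660.6 units in control, ecdysone, irradiated and combined. Its reductase gene Cyt-b5-r had 432.5, 534.4, 428.1 and 374.9. The ferredoxin gene Fdx1 had 473.5, 294.9, 271.1 and 443.4, and Fdx2 had 795.2, 756.1, 417.9 and 284.8. For Fdx2 both irradiated arrays were the lower ones (limma adjusted p = 0.597 for irradiation).

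Of 8 listed genes of heme synthesis and breakdown, 6 were measured, 5 were tested and none passed for either treatment, with a list median ecdysone difference of -0.37. Alas, which encodes the first enzyme of heme synthesis, had 436.1, 626.6, 348.6 and 1027.9 units in control, ecdysone, irradiated and combined. Coprox, a later step, had 1133.4, 697.5, 1227.4 and 474.3. Alas was thus higher and Coprox lower on both hormone arrays (limma adjusted p = 0.455 and 0.282). Ppox, the untested gene, was also lower, at 226.1, 65.2, 209.0 and 40.6 units in the same order. The ecdysone differences of Pbgs (0.19 and -1.28), Urod (-0.42 and 0.03) and FeCH (1.74 and -0.65) had opposite signs in the pairs. For FeCH the second is a bound, with 93.0 units in combined.

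All 10 listed regulators of xenobiotic and hormone responses were measured, 6 were tested and none passed for either treatment. The gene cnc, whose product drives the antioxidant and detoxification response, had 845.4, 588.3, 922.3 and 613.4 units in control, ecdysone, irradiated and combined. It was lower with hormone by -0.52 and -0.59 (limma adjusted p = 0.738). Its inhibitor Keap1 had 141.9, 18.8, 145.3 and 35.4, with both hormone arrays under the floor. The ecdysone receptor gene EcR had 212.1, 535.9, 308.5 and 286.7, and its partner usp lay level between 177.0 and 186.8. The juvenile hormone receptor gene gce had 78.4, 117.1, 280.9 and 290.2, so that both irradiated arrays were at least 2-fold higher (1.23 and 1.28 in log2), with no limma call (adjusted p = 0.844). The median ecdysone difference of the list was -0.05.

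Cyp6a8 lies in the largest run of neighbouring P450 genes, 9 genes in a row in the annotation of chromosome arm 2R. In annotation order these are Cyp6a22, Cyp6a17, Cyp6a23, Cyp6a19, Cyp6a9, Cyp6a20, Cyp6a21, Cyp6a8 and Cyp317a1. Its direct neighbour Cyp6a21 had 79.9 units in control, 325.7 with ecdysone, 174.7 after irradiation and 104.0 with both, at least 1.45 higher in log2 in the unirradiated pair and at -0.55 in the irradiated pair. Cyp6a20, which has been linked with male aggression, had 197.1, 210.2, 277.0 and 119.8 units. Cyp6a9 exceeded the floor in ecdysone alone at 192.7 units, and Cyp317a1 in irradiated alone at 134.1.

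Cyp6a22 had 21.3 units in control, 293.6 with ecdysone, 178.0 after irradiation and 60.4 with both. Cyp6a23 had 100.6, 14.0, 176.9 and 241.0, and Cyp6a17, known for a part in temperature preference, and Cyp6a19 stayed under the floor. No neighbour of Cyp6a8 was at least 2-fold higher in both ecdysone pairs. Neighbouring members of Cyp4e2 also differed from it. Cyp4ad1 had 161.0, 305.2, 288.2 and 41.3 units, with ecdysone differences of 0.92 and -1.27, and Cyp4e1 stayed under the floor. Beside Cyp4p2, Cyp4p3 stayed under the floor and Cyp4p1 exceeded it in the irradiated array alone at 139.0 units. In all 43 annotated members lie in 15 such runs.

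**Figure D5:**
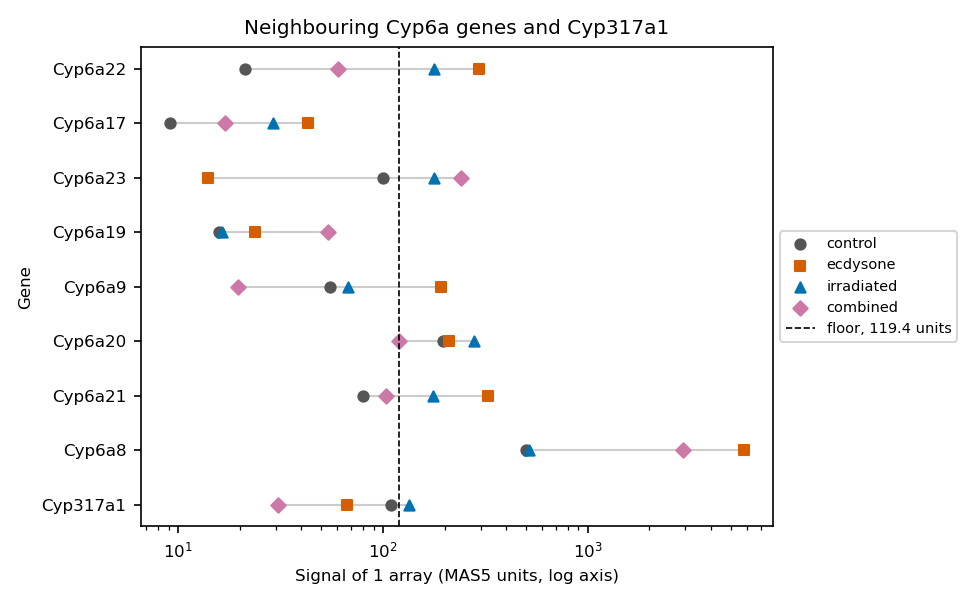
Signals (horizontal log axis, MAS5 units) of the 9 neighbouring P450 genes on chromosome arm 2R, in annotation order from top to bottom, with 1 point per array and a dashed line at the floor of 119.4 units. Cyp6a8 lies far right on both hormone arrays, at 5791.8 and 2909.7 units, while the others stay at or under 325.7 units; signals are to be compared within a row.

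Irradiation was followed by no P450 call. Of the 26 tested members none passed limma at an adjusted p of 0.05, where 0.468% of the 5981 probe sets rose and 0.0167% fell, and 3 were at an unadjusted p under 0.05, 11.5% against 6.87%. All 3 were higher. The size rule called none of the 81 in either direction, where 1.68% of all genes were higher and 1.41% lower, and median scaling brought in Cyp4e2 and Cyp6d4.

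Those 3 were Cyp4e2, Cyp6d4 and Cyp9f2. Cyp6d4, a CYP3 gene, had 379.8 units in control and 458.6 in ecdysone, against 851.5 in irradiated and 838.4 in combined. Both irradiated arrays lay above both unirradiated arrays, by 1.16 and 0.87 in log2 (limma estimate 1.02, standard error 0.46, adjusted p = 0.659). The signals of Cyp4e2 given above correspond to irradiation differences of 0.98 and 1.73 (limma estimate 1.35, standard error 0.39, adjusted p = 0.158). Cyp9f2 was at 0.74 and 2.20 (limma adjusted p = 0.587), and here its second probe set, at 1.06 and 0.97, lay on the same side. Cyp4aa1, of the CYP4 clan, had 71.6 units in control, 247.6 with ecdysone, 299.1 after irradiation and 408.2 with both, with irradiation differences of at least 1.33 and of 0.72.

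Among the members lower with irradiation in both pairs were Cyp6d2 (-0.50 and -0.97), Cyp6t3 (-0.56 and -1.35) and Cyp6a2 (-0.24 and -2.10), none past the threshold. The second values of Cyp6d2 and Cyp6a2 are bounds, with 73.8 and 52.4 units in combined. Cyp4d20, a CYP4 gene with a mean log2 signal too low for the test, had 207.3 units in control and 390.3 in ecdysone. It was under the floor in irradiated and combined, so that it was at least 1.74-fold and at least 3.27-fold lower. Cyp12c1 and Cyp4d2 likewise exceeded the floor on the unirradiated arrays alone, at 161.1 and 165.9 units for Cyp12c1 in control and ecdysone. With Cyp4d20 they make 3.7% of the family, against 3.73% of all genes. In the other direction Cyp4d8 and Cyp6a23 exceeded the floor on the irradiated arrays alone, with 176.2 and 206.5 units for Cyp4d8. These make 2.47% of the family, against 3.14% of all genes.

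Without hormone 5 of 81 members were at least 2-fold higher after irradiation and 1 was lower (6.17% and 1.23%), where 9.9% and 10.3% of all genes were. With hormone 5 were higher and 10 lower (6.17% and 12.3%), against 9.05% and 9.92%. Over the 63 members above the floor on at least 1 array, the median irradiation difference was 0.02 without hormone and 0.00 with it.

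A further 26 members exceeded the floor on 1 array only. On the irradiated array alone these were 12 genes, 14.8% of the family against 5.31% of all genes. They were Cyp309a1 at 271.4 units, Cyp316a1 at 183.4, Cyp313a3 at 178.3, Cyp6t1 at 175.6, Cyp4p1, Cyp6g1 at 136.5, Cyp317a1, Cyp4g15 at 130.2, Cyp4g1 at 128.6, Cyp318a1 at 124.4, Cyp304a1 and Cyp9b1 at 120.2. Cyp6g1 is known from insecticide resistance and Cyp4g1 from the making of cuticle hydrocarbons in oenocytes.

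On the ecdysone array alone were 7 genes, 8.64% against 5.7%. They were Cyp6u1 at 318.7 units, Cyp308a1 at 200.8, Cyp6a9, Cyp4d14 at 177.9, Cyp312a1 at 126.6, Cyp6w1 at 123.1 and Cyp28d2 at 121.8. On the combined array alone were 4, 4.94% against 4.93%, namely Cyp28c1 at 243.7, Cyp311a1 at 199.3, Cyp18a1 and Cyp4ac3 at 147.0. On the control array alone were 3, 3.7% against 5.57%, namely Cyp6a14 at 252.8, Cyp313a4 at 138.7 and Cyp310a1 at 129.2.

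The members not yet given in full were above the floor on 2 or 3 arrays. Cyp28a5 had 268.7, 43.1, 165.7 and 116.2 units in control, ecdysone, irradiated and combined, and Cyp4ac2 had 147.7, 111.8, 264.5 and 30.9. Cyp6a13 had 222.3, 31.0, 115.4 and 262.0, with the 2 single-treatment arrays low. Cyp9c1 had 173.6, 151.1, 179.6 and 27.8, and Cyp301a1, which acts in cuticle formation, had 143.9, 247.6, 192.3 and 37.9. In the last pair, as in Cyp4ad1, Cyp6a2 and Cyp6d2, the combined array was the only one under the floor, a pattern of 6.17% of the family against 4.59% of all genes. Cyp4d2 had 133.5, 298.5, 98.4 and 68.0, Cyp6g2 102.4, 217.8, 162.6 and 139.4, and Cyp49a1 44.2, 305.2, 313.7 and 176.8. Cyp12e1 had 33.5, 202.4, 228.8 and 17.0, with the single treatments alone above the floor.

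Markers of cell types gave the background of these values. Of 6 measured hemocyte markers, Hml, Pxn and srp lay above the floor in control, at 922.0, 597.7 and 291.6 units, while NimC1, Col4a1 and vkg lay under it at 43.0, 50.5 and 49.7. Pxn and Col4a1 rose and Hml fell with ecdysone (limma adjusted p = 3.07e-07, 4.67e-06 and 0.0259). The size rule also called vkg higher with ecdysone (at least 1.97 and at least 2.71 in log2, limma adjusted p = 0.0877). The summed signal of the 6 markers was 1954 units in control, 5878 with ecdysone, 2186 after irradiation and 8802 with both. It adds up markers whose ecdysone differences had opposite signs and whose signals are not comparable with each other, so it is no measure of hemocyte identity. In ecdysone and combined it was mostly Pxn (3090.7 and 5559.8 units) and Col4a1 (1805.5 and 1892.3), while Hml had 284.3 and 240.4. Like the signal of Cyp6a8 the sum was higher on both hormone arrays, but it was highest with both treatments and Cyp6a8 with ecdysone alone. Its part in the Cyp6a8 result was not tested. Of 5 measured fat body markers 2 lay above the floor in control and 4 were tested, none of which passed limma for either treatment. The size rule, however, called Yp2 higher with ecdysone (2.09 and 1.42 in log2, limma adjusted p = 0.114). For irradiation it called Fbp1 higher (2.04 and 1.42) and Lsp2 lower (-1.94 and -2.44), with limma adjusted p-values of 0.54 and 0.222. The summed fat body signal of 1010, 1649, 1061 and 1579 units in the same order therefore adds up markers whose irradiation differences had opposite signs. This sum too adds signals of different probe sets. Of 3 measured ring gland markers 1 lay above the floor in control, and the 1 tested did not pass. No oenocyte, neuron, or Malpighian tubule and gut marker had a mean log2 signal above the floor, so none of these was tested. Above the floor in control were 1 of 3 measured oenocyte markers, 2 of 2 neuron markers and 0 of 1 of Malpighian tubule and gut. That last marker is Cyp12e1 and 1 of the oenocyte markers is Cyp4g1, both members of the family itself. Both measured muscle markers lay under the floor in control and were tested, and neither passed. In RNA of a whole culture, fewer cells of a type and less RNA per cell cannot be told apart.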

How the data were processed

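Affymetrix DrosGenome1 arrays were hybridized with biotinylated targets made from total RNA of 4 Kc167 cultures, 1 per condition, per the labels and file headers. The deposited intensities are linear signals that the authors computed with MAS5, per the submitters' processing notes, and on each array they have a trimmed mean of 200.0 units. All arrays came from the same chip lot and were scanned on the same day, each in its own wash module, per the file headers, so that module and condition cannot be told apart.

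After removal of 44 control probe sets, 13966 remained, of which 12443 had 1 gene symbol, 327 several and 1196 none in the platform annotation. Symbols were updated through gene identifiers with RefSeq Release 6 plus ISO1 MT for 12394 probe sets and kept for 49, and that assembly served for names, chromosome arms and gene order only. Arrays were scaled to a common trimmed mean with 2% left out at each end, which moved none by more than 0.0667%. The limma fit (limma 3.58.1, R 4.3.3) used unfloored log2 signals, ecdysone and irradiation as additive terms, a prior variance that follows intensity (29.4 degrees of freedom) and a threshold of 0.05. Because each treatment's pairs share no array, both are given, and a single array per condition leaves the spread between cultures unknown. Tables and figures were made in Python 3.11.15 (pandas 2.3.3, numpy 2.4.6, matplotlib 3.10.9).

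Every P450 gene above the floor on at least 1 array is named with signals, and those past limma or the size rule with all values. The members and lists were chosen with earlier results of these data known. Alternatives were other scalings, floors, fold limits, single pairs, averaged probe sets and other priors. Searches of protein and promoter sequence were planned and not run, since no sequence was used here, and detection calls were not used here.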

Additional observations from a re-analysis of the deposited data

Results flagged for a closer look

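The ecdysone difference of Cyp12a4 had opposite signs in the pairs, at 1.46 without irradiation and -1.30 with it on the log2 scale. The difference between the pairs was not tested.

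The probe set shared by Cyp12d1-d and Cyp12d1-p, which entered no count of the family, gave 408.7 units with ecdysone, 299.5 after irradiation and 337.8 with both, all above its control signal of 52.9.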

How the results depend on the processing

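With a floor at the 25th percentile (41.7 units) 49 members lay above it in control, against 27. With the floor at the 60th percentile (173.0 units) that number was 18. The limma count for ecdysone was 2 with median scaling, Cyp4e2 joining Cyp6a8, and 0 with limma without the intensity trend, where 3 of 26 members were at an unadjusted p under 0.05 and no probe set of the 5981 passed. The ecdysone count of the size rule was 7 with the floor at the 25th percentile, 12 without a floor, 7 at 1.5-fold, 1 at 3-fold, 16 in the unirradiated pair alone and 13 in the irradiated pair alone, against 4. For irradiation it was 2 with median scaling, 5 with the floor at the 25th percentile, 9 without a floor, 5 at 1.5-fold, 6 in the hormone-free pair alone and 15 in the hormone-treated pair alone, against 0. For the counts above the floor and by the size rule, the share of all genes at these settings is not given here. It is given only for the single pairs above, so these counts are no result about the family. Lower floors and fold limits admit more genes by construction, and for the other settings the cause was not tested. Under the other settings these counts stayed within 1.5 times, but for ecdysone the size rule lost Cyp4e2 with median scaling and Cyp6d5 with the floor at the 60th percentile, which left 3 calls each. Cyp6a8, Cyp4e2, Cyp6d5 and Cyp4p2 kept the sign of their ecdysone difference in every alternative run. No paired analysis was possible because each condition has 1 array and no label pairs them by number. Signals under the floor limit what can be said of the 55 members outside the limma fit.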
